A study of Mus musculus with 3 samples.

Results

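The genes described here are those for calcium channels, calcium stores and calcium pumps on spotted mouse arrays. They were taken by gene symbol, as all spots whose symbol starts with Cacn (voltage-gated channel subunits), Ryr or Itpr (release channels of the stores), Trpc, Trpv or Trpm with a number (transient receptor potential, TRP, channels), Atp2a, Atp2b or Atp2c (pumps) or Slc8a (sodium-calcium exchangers), with Gem, a small GTPase, added by name. The rule itself used no measured value, but the members were chosen with earlier results of these data known. It found 70 probes of 54 genes, out of 21761 probes and 17202 gene symbols. One of the 54, Trpc4ap, matched only by its letters, since it encodes a protein that binds a TRPC channel and no channel.

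N1E-115, a mouse neuroblastoma line, was transfected with polyethylenimine 24 h after plating with 2 µg of plasmid, and RNA was taken 48 h later. The control plasmid pEGFP-C1 gave EGFP alone, and the other plasmid, pEGFP-NaV1.2CT-Flag, gave EGFP fused to the last part, 229 amino acids, of the mouse sodium channel NaV1.2 (gene Scn2a), called NaV1.2CT here. Each array held both RNAs, EGFP in Alexa555 and NaV1.2CT in Alexa647, with 10 µg of RNA labelled and RNA of 3 dishes pooled. By the sample labels, glucose was 5 mM for 1 array (low glucose) and 20 mM for 2 arrays (high glucose), although the growth protocol lists low-glucose DMEM throughout. No label says whether the arrays had their own cultures, and p-values therefore cover the spread between these arrays alone. The dyes were never swapped, so a dye bias of a probe and a response to NaV1.2CT cannot be told apart.

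Calcium enters neurons through voltage-gated channels. Each has a pore-forming alpha1 subunit (L type, P/Q, N and R types, or the low-voltage T type) and, outside the T type, auxiliary alpha2delta and beta subunits that carry it to the membrane and set its gating. Ryanodine receptors and IP3 receptors release calcium from the endoplasmic reticulum, TRP channels admit calcium and other cations, SERCA pumps refill the stores, SPCA pumps load the Golgi, and PMCA pumps and sodium-calcium exchangers export calcium across the plasma membrane. Gem belongs to the RGK family of GTPases, which bind beta subunits and lower calcium current.

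Each value is a log2 ratio of NaV1.2CT over EGFP unless it is named as an intensity, and values are listed in the order low glucose, high glucose replicate 1, high glucose replicate 2. Median raw intensity ran from 1106 to 1706 in the EGFP channel and from 890 to 1354 in the NaV1.2CT channel. Across all probes the SD of the log2 ratio was 0.10 to 0.11 on each array, and the 231 GAPDH control spots had an SD of 0.047 to 0.071. The only Scn2a probe, described in the files as the end of a sodium channel mRNA, stood at 0.084, 0.11 and 0.13, with a mean of 0.11 (SD 0.022, n = 3, limma adjusted p 0.105). The sources used here do not say whether that probe lies in the fused part, so it does not check the labels. A probe was called above the empty limit where raw minus background exceeded, in each channel, the 95th percentile found in empty spots. Of the 70 probes, 65 met this on all 3 arrays. Among the others, Cacna2d2 and Cacna2d3 met it on 0 arrays and Trpv3 and Trpv6 on 1. The limit does not show that a transcript was present: all 15 sympathoadrenal marker probes were above it on every array, but so were 5 of 8 fibroblast, 7 of 7 glial and 5 of 6 muscle and heart marker probes. Of the 15 sympathoadrenal probes, Isl1 rose (0.18, limma adjusted p 0.042) and Slc6a2 fell (-0.23, limma adjusted p 0.0187) over the 3 arrays. The other 13 did not pass, so 13.3% were called, against 3.85% of all probes. Neither Isl1 nor Slc6a2 was followed under the other settings. The 8 fibroblast probes had means from -0.070 to 0.11, the 7 glial ones from -0.055 to 0.13 and the 6 muscle and heart ones from -0.089 to 0.083, and none of these passed.

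Over the 3 arrays, 6 of the 70 probes passed limma's test (lmFit and eBayes, two-sided, Benjamini-Hochberg adjusted p under 0.05 over all 21761 probes). Lower with NaV1.2CT were Gem, Ryr3 and the T-type channel gene Cacna1h. Higher were the beta subunit gene Cacnb4, the plasma membrane pump gene Atp2b2 and the cation channel gene Trpv2. The 6 make up 8.57% of the members, against 3.85% of all probes called in this comparison. For the lower direction it was 3 of 70 members against 583 of 21761 probes (2.68%). For the higher direction it was 3 of 70 members against 254 of 21761 probes (1.17%). Gem was added by name, and without it 2 of 69 members were called lower. The authors' deposited z-score was given for 15 of the 18 values of these 6 probes and had the same sign in all 15, from the same spots. All 6 changes were small, between -17.8% and 13.5% on the linear scale. A change in the share of cells of one kind and a change in RNA per cell cannot be told apart in such a pool. At an unadjusted p under 0.05, 22 members (31.4%) and 24.0% of all probes passed.

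Gem, which was picked for the set by name, stood at -0.098 on the low glucose array and at -0.43 and -0.32 on the high glucose arrays. All 3 arrays were on the lower side, the low glucose array least. The mean was -0.28 (SD 0.17, n = 3, limma adjusted p 0.0359). Raw intensity in the EGFP channel was 392.1, 551.8 and 537.6, and in the NaV1.2CT channel 298.8, 316.3 and 316.0. The low glucose array thus had a lower raw EGFP intensity than both high glucose arrays, while the raw NaV1.2CT intensities were within a narrower range. Raw intensities were not scaled between arrays. Over all gene spots the low glucose array had the highest median in both channels (EGFP 1706 against 1172 and 1106). These raw values therefore do not show which channel of Gem differed between the glucose levels. In the high glucose arrays alone Gem fell to -0.38 (SD 0.079, n = 2, limma adjusted p 0.0173), a change of -22.9%. It was the single member called there, 1.43% of the members against 2.11% of all probes (1 lower against 1.42%, and 0 higher against 0.689%). The low minus high glucose difference for Gem was 0.28 (limma p 0.0067 before adjustment, adjusted p 0.546), so the difference between the glucose levels did not pass. The fall of Gem over the 3 arrays did not pass without high glucose replicate 1 (adjusted p 0.0539) or without replicate 2 (0.0562). Of its relatives in the same family, Rrad stood at 0.091 (SD 0.046, limma adjusted p 0.163) and Rem1 at -0.062 (SD 0.080, limma adjusted p 0.375, n = 3 for both), and neither passed.

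**Figure D1:**
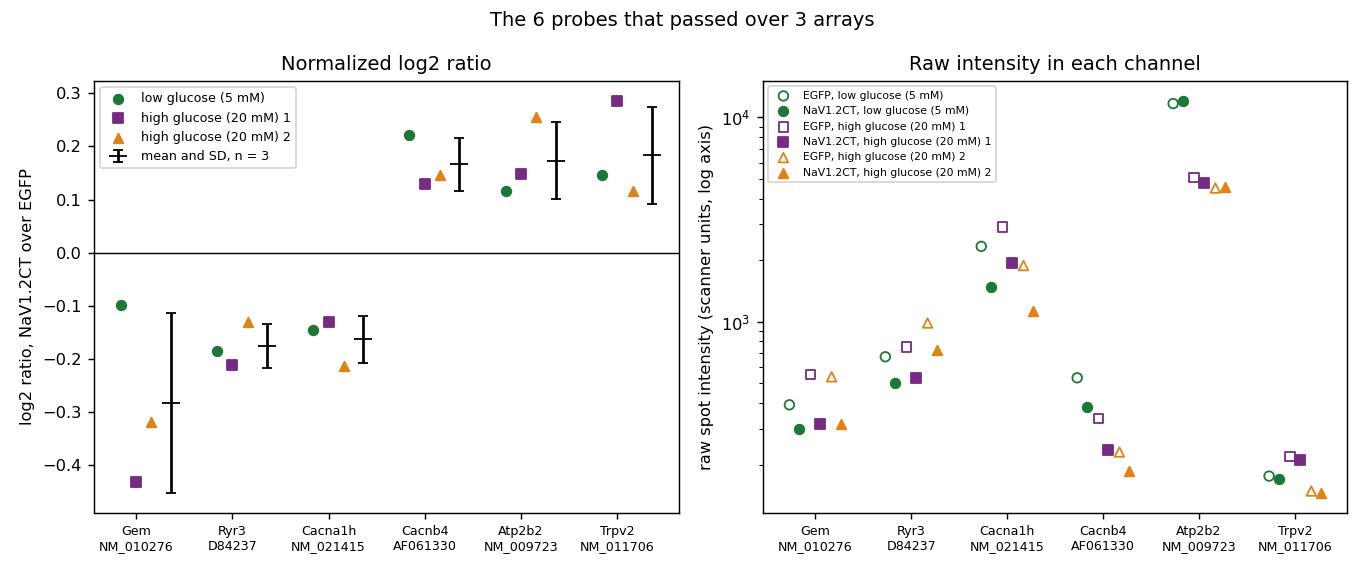
The 6 probes that passed over 3 arrays. Left, normalized log2 ratio of NaV1.2CT over EGFP on each array, with the mean and SD (n = 3) as a bar; Gem, Ryr3 and Cacna1h lie below 0 on all 3 arrays, and Cacnb4, Atp2b2 and Trpv2 lie above 0 on all 3. Right, raw spot intensity of the same probes in the EGFP channel (open symbols) and the NaV1.2CT channel (filled symbols), on a log axis.

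The alpha1 subunits, which form the pore, lay mostly below 0. Of 12 probes of 10 genes, 11 had a mean below 0 and 10 were below 0 on all 3 arrays, with a median of -0.070. One passed, Cacna1h. Over all 21761 probes the median was -0.0034, 25.1% were below 0 on all 3 arrays, and 48.1% had a mean above 0. The count below 0 stayed between 9 and 12 of the 12 under the other scalings of the whole set and with any array left out, with 9 after median centring.

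Within the T type, Cacna1h encodes CaV3.2, a channel that opens near the resting potential. Its probe NM_021415 stood at -0.14, -0.13 and -0.21, which averaged -0.16 (SD 0.045, n = 3, limma adjusted p 0.0435), a change of -10.7%. The arrays lay close together, and raw intensity was lower in the NaV1.2CT channel (1481, 1941 and 1132) than in the EGFP channel (2335, 2896 and 1881) on each. So were the medians of all gene spots (1354, 946 and 890 against 1706, 1172 and 1106), so raw intensity alone does not show a fall. A second probe of the gene, AF051947, described as a partial coding sequence of a T-type alpha1 subunit, stood at -0.012, -0.11 and -0.093 and did not pass (mean -0.072, SD 0.053, adjusted p 0.262). Cacna1g (CaV3.1) had nearly the same value on every array, -0.10, -0.098 and -0.084, without passing (mean -0.095, SD 0.010, adjusted p 0.131). Cacna1i (CaV3.3) was the one alpha1 gene with a mean above 0, at -0.027, 0.043 and 0.0043. Its arrays lay on both sides of 0 (mean 0.0067, SD 0.035). It turned to the lower side, passing there with whole-array loess (-0.19, adjusted p 0.00454) and with median centring (-0.28, adjusted p 0.0013). With any 1 array left out, Cacna1h did not pass (adjusted p 0.0763 to 0.104).

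All 5 L-type probes were below 0 on every array, and 0 passed. With median centring or whole-array loess 4 of the 5 had a mean below 0, and the Cacna1d probe AK018426 turned above it. The lowest was the Cacna1d (CaV1.3) probe M57975, named in the files as a neuroendocrine L-type channel, at -0.019, -0.043 and -0.29. High glucose replicate 2 alone set that mean (-0.12, SD 0.15, adjusted p 0.212). The other Cacna1d probe, AK018426, stood at -0.025, -0.022 and -0.11 (mean -0.052). The L-type probe nearest to 0 was Cacna1f, known from the retina, at -0.025, -0.022 and -0.071 (mean -0.039, SD 0.028). It passed as lower with whole-array loess (-0.24, adjusted p 0.00167) and with median centring (-0.18, adjusted p 0.0165). Among the channels of presynaptic terminals, Cacna1b, the N-type pore CaV2.2, was lowest, at -0.026, -0.14 and -0.22. It was lower at high glucose than at low glucose, and neither its mean (-0.13, SD 0.098, adjusted p 0.115) nor its glucose difference (0.15, adjusted p 0.684) passed. Cacna1a, the P/Q-type pore, was highest of that group at 0.060, -0.0098 and -0.13 (mean -0.027, SD 0.096), with arrays on both sides of 0.

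The auxiliary subunits were spread around 0, with 11 of 16 probes below 0 and a median of -0.0096. One of them passed. Cacnb4, the beta4 subunit, is known in the mouse from the lethargic mutant, which has seizures and ataxia. Its probe AF061330, described as a piece of the untranslated end of the mRNA, rose to 0.22, 0.13 and 0.15, with a mean of 0.17 (SD 0.049, n = 3, limma adjusted p 0.043). All 3 arrays were on the higher side after normalization. Its raw intensities were lower in the NaV1.2CT channel (383.2, 234.5 and 185.4) than in the EGFP channel (531.4, 335.8 and 230.5), as were the medians of all spots, and its direction depended on how its print block, the patch of the array laid down by 1 pin, was scaled. With loess over the whole array the value turned to -0.046 (adjusted p 0.428), and with median centring to -0.15 (adjusted p 0.0433). With any 1 array left out it did not pass (adjusted p 0.0606 to 0.107). The other probes of Cacnb4 did not show a rise: AF068899 stood at -0.0055, 0.016 and 0.015, AF039417 at 0.049, -0.034 and -0.12, and AK014145 at -0.011, 0.030 and -0.13. Means of these 3 probes were 0.0085, -0.033 and -0.037, and they did not pass (adjusted p 0.614 to 0.902). AF068899 turned to the lower side, passing there with whole-array loess (-0.20, adjusted p 0.00355) and with median centring (-0.15, adjusted p 0.0296). AF039417 also passed as lower with whole-array loess (-0.25, adjusted p 0.00255) and with median centring (-0.19, adjusted p 0.0085).

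Cacnb1, the beta subunit of skeletal muscle and some neurons, was lowest among the beta subunits at -0.091, -0.20 and -0.16. All arrays were below 0, and its mean of -0.15 (SD 0.057) lay just outside the threshold (limma adjusted p 0.0565). Cacna2d1, the target of gabapentin, was the single alpha2delta probe that cleared the empty limit on all 3 arrays. It stood at -0.21, -0.084 and -0.10, without passing (mean -0.13, SD 0.067, adjusted p 0.0831). With whole-array loess (-0.45, adjusted p 0.000263) and with median centring (-0.19, adjusted p 0.00869) Cacna2d1 passed as lower. Among the gamma subunits the highest and the lowest probe belonged to 1 gene, Cacng2 (stargazin, an auxiliary protein of AMPA receptors). Probe NM_007583 stood at -0.041, 0.046 and 0.089 (mean 0.031), and probe AK020958 at -0.20, -0.14 and -0.0094 (mean -0.11, adjusted p 0.143).

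**Figure D2:**
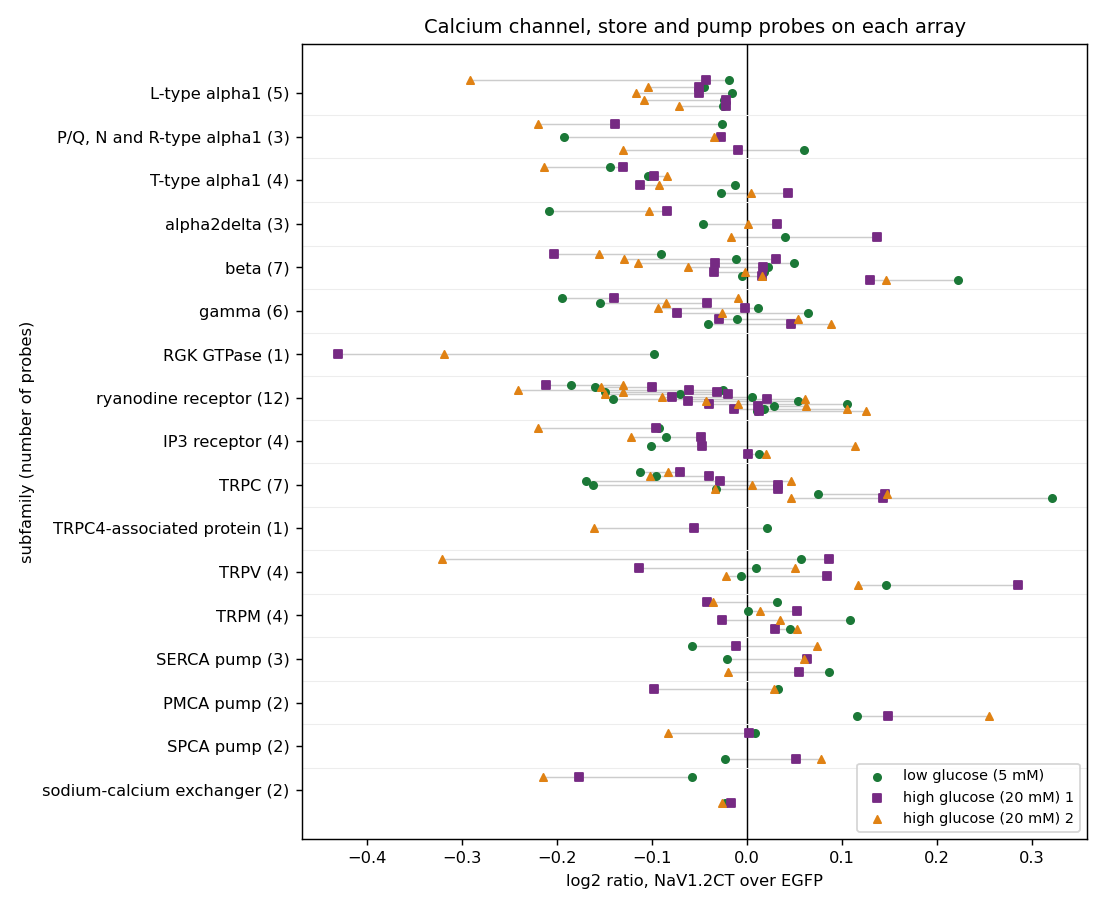
Log2 ratio of NaV1.2CT over EGFP of all 70 probes on each of the 3 arrays, by subfamily (number of probes in brackets); each grey line joins the lowest and the highest array of 1 probe. The 5 L-type probes lie below 0 on every array, Gem reaches -0.43, and most other probes straddle or lie close to 0.

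The release channels of the stores lay below 0 in 11 of 16 probes, with a median of -0.037, and 1 passed. Ryr3 is the ryanodine receptor type found in brain and other tissues beside the muscle types. Its probe D84237 fell to -0.18, -0.21 and -0.13, with a mean of -0.18 (SD 0.042, n = 3, limma adjusted p 0.0361), a change of -11.5%. The 3 arrays lay close together, and raw intensity was 673.5, 750.2 and 985.1 in the EGFP channel and 499.9, 528.4 and 729.6 in the NaV1.2CT channel. The median of all gene spots was lower in the NaV1.2CT channel too. The other probes of Ryr3 had means below 0 too, without passing. D38218, from brain RNA, stood at -0.026, -0.061 and -0.24 (mean -0.11, adjusted p 0.187). AF111166 stood at -0.15, -0.032 and -0.13 (mean -0.10, adjusted p 0.139). D84236, from exon DNA, stood at 0.054, -0.062 and -0.043 (mean -0.017, adjusted p 0.814), with the low glucose array above 0. It passed as lower with whole-array loess (-0.21, adjusted p 0.00268) and with median centring (-0.21, adjusted p 0.0053). D84237 itself did not pass without the low glucose array (adjusted p 0.0765) or without high glucose replicate 1 (0.13). The 12 ryanodine receptor probes as a whole were 8 below 0 to 4 above, and this lean was not kept after loess over the whole array (6 to 6) or median centring (5 to 7).

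Ryr1, the skeletal muscle type, had 7 probes that disagreed with each other and of which 0 passed. The lowest, X83932, stood at -0.16, -0.10 and -0.15, all below 0 (mean -0.14, SD 0.033, adjusted p 0.0598). Another pair was below 0 on average, AJ308737 at -0.071, -0.020 and -0.15 (mean -0.080) and D21796 at 0.0050, -0.079 and -0.089 (mean -0.054). The highest, AJ310366, stood at 0.011, 0.013 and 0.13 (mean 0.050, SD 0.065). The remaining 3 lay between: X78666 at 0.11, -0.040 and -0.0099, AJ310365 at 0.029, 0.012 and 0.062, and D21797 at 0.018, -0.014 and 0.11. With loess over the whole array D21796 passed as lower (-0.33, adjusted p 0.000321). Under the same setting AJ310366 (0.12, adjusted p 0.0414) and D21797 (0.14, adjusted p 0.0305) passed as higher. Of the 7, AJ308737, AJ310365, AJ310366 and D21797, are described in the files as pieces of the gene and not as an mRNA. Ryr2, the heart type, has 1 probe, at -0.14 on the low glucose array against 0.022 and 0.061 at high glucose (difference -0.18, limma p 0.0324 before adjustment, adjusted p 0.633).

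**Figure D3:**
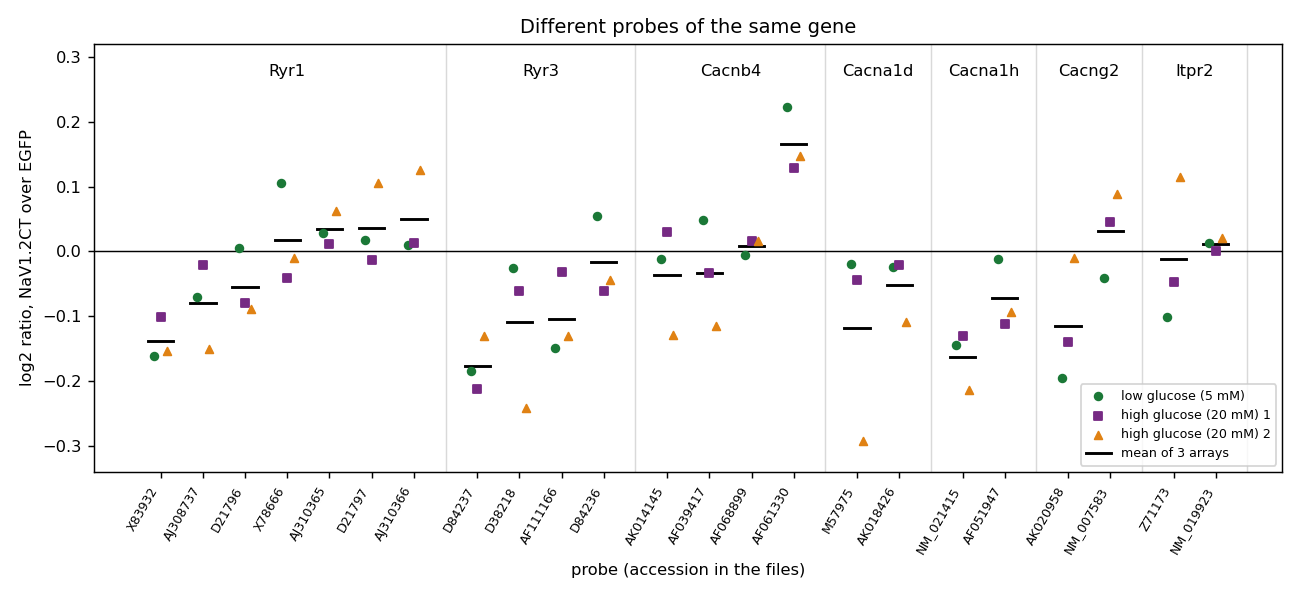
Log2 ratio of NaV1.2CT over EGFP on each array for the 7 genes with more than 1 probe, with the mean of 3 arrays as a bar; probes are ordered by mean within a gene. The 4 Ryr3 probes all have means below 0, the Ryr1 probes run from -0.14 to 0.050, and 1 Cacnb4 probe at 0.17 stands apart from the other Cacnb4 probes near 0.

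Of the IP3 receptor probes, Itpr3 was lowest, at -0.093, -0.095 and -0.22. All arrays were below 0, without passing (mean -0.14, SD 0.073, adjusted p 0.0816). The highest was an Itpr2 probe, NM_019923, at 0.012, 0.00094 and 0.020 (mean 0.011). The other Itpr2 probe, Z71173, was spread over both sides, at -0.10, -0.047 and 0.11 (mean -0.011, SD 0.11), and with median centring it passed as higher (0.43, adjusted p 0.000145). Itpr1, the main type of neurons, had a mean of -0.085 (SD 0.037, adjusted p 0.18).

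Among 15 probes of TRP channels, 8 lay below 0 and 7 above (4 and 11 with loess over the whole array), and 1 passed. Trpv2, a cation channel named in older work for its response to noxious heat, rose to 0.15, 0.29 and 0.12, with a mean of 0.18 (SD 0.091, n = 3, limma adjusted p 0.047), a change of 13.5%. All arrays were above 0, high glucose replicate 1 most. It is a dim spot, with raw intensities of 175.7, 219.4 and 148.5 in the EGFP channel and 170.4, 210.8 and 145.4 in the NaV1.2CT channel, which were nearly equal on each array. Without high glucose replicate 1 the mean was 0.13 and did not pass (adjusted p 0.217), nor did it pass without the low glucose array (0.20, adjusted p 0.0749). Trpv4, a channel opened by osmotic swelling, was the lowest of its group, at 0.057, 0.087 and -0.32. High glucose replicate 2 alone was below 0 (mean -0.059, SD 0.23, adjusted p 0.641).

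Trpc1, a subunit of receptor-operated and store-operated channels, was the highest TRPC probe, at 0.32, 0.14 and 0.047. The arrays all lay above 0 but far apart, and it did not pass (mean 0.17, SD 0.14, adjusted p 0.0875), nor did its glucose difference (0.23, limma p 0.0164 before adjustment, adjusted p 0.581). Trpc1 passed as higher with loess over the whole array (0.29, adjusted p 0.000909), with median centring (0.73, adjusted p 7.57e-06) and without high glucose replicate 2 (0.23, adjusted p 0.0355). Trpc7, which is gated by diacylglycerol, was more even, with a mean of 0.12 (SD 0.041, adjusted p 0.0828), and passed as higher with loess over the whole array (0.14, adjusted p 0.0185). The lowest was Trpc2, a channel of the vomeronasal organ, at -0.11, -0.070 and -0.083 (mean -0.089, SD 0.022, adjusted p 0.157). Trpc2 passed as lower with loess over the whole array (-0.32, adjusted p 0.000358) and with median centring (-0.34, adjusted p 0.000499). In the TRPM group 3 of 4 probes had means above 0. Trpm7, a channel fused to a kinase and involved in magnesium uptake, was highest, at 0.045, 0.030 and 0.052 (mean 0.043, SD 0.011, adjusted p 0.471). Trpm7 passed as higher with loess over the whole array (0.13, adjusted p 0.0246) and with median centring (0.16, adjusted p 0.0379). Trpm5, the channel of taste cells, was lowest at 0.031, -0.043 and -0.036 (mean -0.016, SD 0.041). Trpc4ap stood at 0.021, -0.056 and -0.16 (mean -0.066, adjusted p 0.368), and with median centring it passed as higher (0.17, adjusted p 0.0267).

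Of 7 pump probes 5 had a mean above 0, where 48.1% of all probes did, and 1 passed. Atp2b2 alone among them was above 0 on all 3 arrays, where 21.8% of all probes were. Atp2b2 encodes PMCA2, a plasma membrane pump known from cerebellar Purkinje cells and the hair cells of the ear. It rose to 0.12, 0.15 and 0.25, with a mean of 0.17 (SD 0.072, n = 3, limma adjusted p 0.0459), a change of 12.7%. All arrays were above 0, and the spot was bright, with raw intensities of 11655, 5064 and 4504 in the EGFP channel and 12045, 4759 and 4543 in the NaV1.2CT channel. With any array left out it did not pass (adjusted p 0.057 to 0.118). Atp2b1, the PMCA1 pump of most cells, lay on both sides of 0, at 0.033, -0.098 and 0.029 (mean -0.012, SD 0.075).

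The 3 SERCA probes had means above 0 and 0 passed. Atp2a2, the SERCA2 pump of most cells, was highest, at 0.087, 0.055 and -0.020 (mean 0.041, SD 0.055, adjusted p 0.53). Atp2a1, the pump of fast muscle, was lowest at -0.058, -0.012 and 0.074 (mean 0.0016). Atp2a2 passed as higher with loess over the whole array (0.16, adjusted p 0.0114) and with median centring (0.21, adjusted p 0.00657). Atp2a1 did so with median centring (0.20, adjusted p 0.0235). Of the SPCA probes, Atp2c2 stood at -0.023, 0.052 and 0.078 (mean 0.035) and Atp2c1 at 0.0083, 0.0025 and -0.083 (mean -0.024), so neither kept 1 direction. Both sodium-calcium exchangers were below 0 on every array under the scaling used, while Slc8a3 turned under others. Slc8a1 (NCX1) stood at -0.058, -0.18 and -0.22, near but outside the threshold (mean -0.15, SD 0.082, adjusted p 0.0701). It passed as lower with loess over the whole array (-0.34, adjusted p 0.000481) and with median centring (-0.42, adjusted p 0.000395). Slc8a3 (NCX3) was close to 0 on all arrays, at -0.023, -0.016 and -0.027 (mean -0.022, SD 0.0052, adjusted p 0.725). It turned above 0 under both scalings that ignore the print block, to 0.074 with loess over the whole array (adjusted p 0.178) and to 0.40 with median centring, where it passed as higher (adjusted p 0.000169).

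The set as a whole had a median of -0.023, and 23 of 70 probes (32.9%) had a mean above 0, against 48.1% of all probes. On all 3 arrays, 26 members (37.1%) were below 0 and 10 (14.3%) above 0, where 25.1% and 21.8% of all probes were. The members are not independent of each other, since 23 of the 70 probes share 7 genes. The lean of the set towards lower values was not kept with loess over the whole array or with median centring, where 35 of 70 were above 0 in each. The number of members called moved with the scaling as well, to 23 (32.9% of the members, against 34.9% of all probes) with loess over the whole array and 25 (35.7%, against 40.4%) with median centring. It dropped to 0 with plain background subtraction, with the authors' net intensities and with the authors' deposited ratio. In the same order, just 2, 1 and 4 of 21760 probes were called, so the 0 is not particular to the members. At an unadjusted p under 0.05 it was 4247, 4146 and 4143 of 21760 probes, and 18, 15 and 15 of 70 members.

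**Figure D4:**
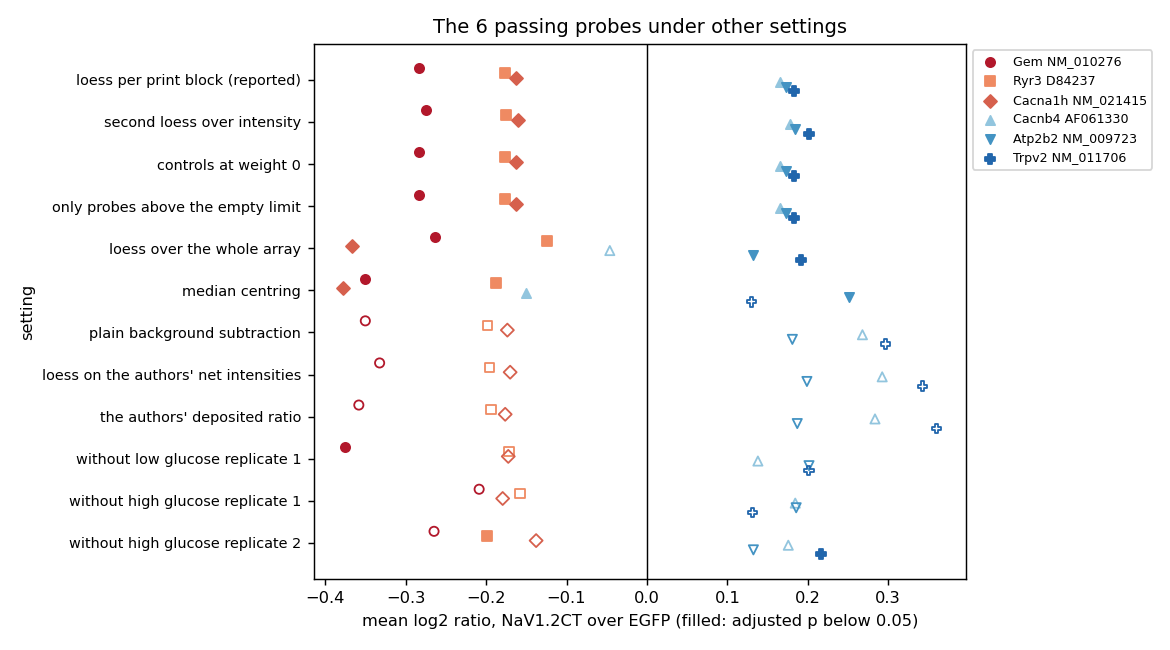
Mean log2 ratio over 3 arrays of the 6 probes under each way of processing (rows); filled symbols have an adjusted p under 0.05, open symbols do not. Gem, Ryr3 and Cacna1h stay below 0 and Atp2b2 and Trpv2 above 0 in every row, while Cacnb4 crosses 0 with loess over the whole array and with median centring.

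The low minus high glucose difference asked whether the effect of NaV1.2CT differed between the glucose levels. Of the 70 members 0 passed limma's test, against 0.0276% of all probes, and 6 members (8.57%) and 7.50% of all probes had an unadjusted p under 0.05. Among them were Gem and Trpc1, named above with positive differences, and Ryr2, Trpc5 and Cacna1e, which were lower on the low glucose array. Trpc5 stood at -0.17 against -0.028 and 0.046 (difference -0.18, limma p 0.0399). Cacna1e, the R-type pore, stood at -0.19 against -0.027 and -0.034 (difference -0.16, limma p 0.0484). After adjustment, p was between 0.546 and 0.663 for these named genes. The low glucose group is 1 array, taken to vary like the others. The files number it in another array series than the 2 others, and the series of arrays cannot be told apart from glucose.

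Other genes of calcium handling were read beside the set: store-operated entry (Stim1, Stim2 and Saraf among those with a probe), mitochondrial uptake, potassium-dependent exchangers, RGK GTPases, store proteins, and calmodulin with its kinases, phosphatase and buffers. Of 95 genes 74 had a probe. Over the 3 arrays 0 rose, 2 fell and 72 did not pass, so 2.70% were called against 3.85% of all probes. Their median was 0.0023, with 38 of 74 above 0. Vdac1, the anion channel of the outer mitochondrial membrane through which calcium reaches the uniporter, fell to -0.30, -0.15 and -0.19, all below 0 (mean -0.21, SD 0.075, n = 3, limma adjusted p 0.0297), and did not pass without the low glucose array (adjusted p 0.07). Vdac1 kept its size but did not pass with plain background subtraction, with net intensities or with the deposited ratio (-0.22 in each, adjusted p 0.157 to 0.167). Tmco1, a calcium-activated calcium channel of the endoplasmic reticulum, fell to -0.12, -0.32 and -0.27 (mean -0.23, SD 0.11, limma adjusted p 0.0309), though its spot cleared the empty limit on 1 array alone. Without high glucose replicate 1 it did not pass (adjusted p 0.0663). Nor did Tmco1 pass with plain background subtraction (-0.58, adjusted p 0.182), with net intensities (-0.61, adjusted p 0.192) or with the deposited ratio (-0.55, adjusted p 0.186), where its value was much further from 0. At high glucose 1 of the 74 genes rose and 1 fell, where 2.11% of all probes were called. Tmco1 was the gene that fell there (-0.29, limma adjusted p 0.0231), though not with plain subtraction (-0.81, adjusted p 0.0532). There Rcan2, an inhibitor of calcineurin, rose to 0.24 (limma adjusted p 0.0358), with 0.068, 0.22 and 0.26 on the 3 arrays, and over the 3 arrays it did not pass (0.18, adjusted p 0.0524). At high glucose Rcan2 did not pass with plain subtraction, net intensities or the deposited ratio (0.28 in each, adjusted p 0.103 to 0.141).

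RefSeq promoters (250 bases before to 50 after a gene's start, build GRCm38.p6) are shown for the 3 genes that were higher. The promoter source used holds no entry for Gem, Ryr3 and Cacna1h, so the lower genes could not be shown. The source holds several starts for each gene shown, and the first listed is printed, 5′ to 3′. Capitals mark GGGCGG, the core of the GC box, on either strand.
Cacnb4: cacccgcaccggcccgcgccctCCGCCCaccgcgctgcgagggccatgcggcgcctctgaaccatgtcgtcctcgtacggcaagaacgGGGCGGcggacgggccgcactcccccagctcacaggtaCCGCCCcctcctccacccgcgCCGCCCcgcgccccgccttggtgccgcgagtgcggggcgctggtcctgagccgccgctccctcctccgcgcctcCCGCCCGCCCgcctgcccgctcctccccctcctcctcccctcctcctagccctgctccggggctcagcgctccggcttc
Atp2b2: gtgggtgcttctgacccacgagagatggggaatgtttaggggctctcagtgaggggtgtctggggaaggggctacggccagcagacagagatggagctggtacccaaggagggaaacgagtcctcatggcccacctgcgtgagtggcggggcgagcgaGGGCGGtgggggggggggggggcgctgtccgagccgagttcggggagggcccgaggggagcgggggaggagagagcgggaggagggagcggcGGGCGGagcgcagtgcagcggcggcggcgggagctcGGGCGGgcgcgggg
Trpv2: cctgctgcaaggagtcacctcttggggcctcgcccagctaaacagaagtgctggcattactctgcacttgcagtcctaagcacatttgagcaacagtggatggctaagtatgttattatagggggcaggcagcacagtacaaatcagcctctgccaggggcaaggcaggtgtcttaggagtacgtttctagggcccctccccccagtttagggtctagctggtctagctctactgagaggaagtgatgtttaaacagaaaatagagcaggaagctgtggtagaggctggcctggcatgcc
The Cacnb4 stretch is chr2:52676094-52676393 on the minus strand, the Atp2b2 stretch chr6:114042031-114042330 on the minus strand, and the Trpv2 stretch chr11:62574236-62574535 on the plus strand. GGGCGG, read on both strands, was found 6 times for Cacnb4, 3 times for Atp2b2 and 0 times for Trpv2, and 35.7% of 32851 promoters of 300 bases hold it. TATAAA and TGACG were searched on both strands too. Neither was in these 3 stretches, and 13.6% and 20.8% of all promoters hold them. The counts depend on the start taken, since each gene has 3 starts in the source used. GGGCGG was found 0 times at both later starts of Cacnb4, 0 and 2 times at those of Atp2b2 and 0 times at those of Trpv2. TATAAA was found 1 time at the second start of Trpv2, whose stretch overlaps the one printed, and 0 times at the other unprinted starts. TGACG was found at none of them. These matches describe letters in a window and nothing about a factor. The arrays measured no promoter.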

How the data were processed

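Spotted 2-colour arrays measured RNA of N1E-115 cells, 1 at low and 2 at high glucose. Per the file headers, each spot has a mean raw intensity and a mean background intensity in both channels, as deposited. The deposited ratio is EGFP over NaV1.2CT, so its sign was turned here. The deposited score is the authors' z-score, read here only for its sign. The sources used here give neither the scanner nor how that score was made.

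Raw and background intensities were corrected with normexp (offset 50) in limma 3.58.1 under R 4.3.3, and the log2 ratio (NaV1.2CT over EGFP) was normalized by loess in each of 48 print blocks, with empty spots at weight 0. Print block accounted for 52.4%, 54.1% and 40.4% of log ratio variance after loess on whole arrays, and for 0.204%, 0.132% and 0.103% after loess by block. Spots alike in accession and description were averaged, control and empty spots left out, and no probe filtered. lmFit and eBayes tested the mean of 3 arrays, the mean of the 2 high glucose arrays and the low minus high glucose difference, with residual degrees of freedom of 2, 1 and 1 and a prior of 7.16, 7.54 and 7.54. The number of arrays limits the precision. Alternatives changed the background correction, the normalization, the filter on dim probes, the choice of probe per gene and the arrays used.

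Member symbols all matched current symbols of GRCm38.p6. The text names member probes that passed any comparison, Gem, the highest and lowest probe above the empty limit in each subfamily, all probes of genes with several, and other calcium genes that passed; further members are named where their value lay near the threshold, where their glucose difference had an unadjusted p under 0.05, or to complete a small group, and were chosen after their values were seen. The members and lists were chosen with earlier results of these data known. One member is counted in the totals but not reported here by name.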

Additional observations from a re-analysis of the deposited data

How the results depend on the processing

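Over the 3 arrays, 6 member probes passed, and 6 to 8 did so with a second loess over intensity, with control spots at weight 0 (chosen after seeing the data) and among probes above the empty limit. Those settings called 3.68% to 5.49% of all probes. The count was 23 with loess over the whole array (32.9% of the members, against 34.9% of all probes) and 25 with median centring (35.7%, against 40.4%). It was 3 without probes under the 25th percentile of intensity (5.17%, against 3.83%) and 3 with 1 probe per gene (5.56%, against 3.53%). It was 0 with plain background subtraction, with loess of net intensities as the authors gave them and with the authors' deposited ratio. With 1 array left out the count ran from 0 to 3, where 2.11% to 3.48% of all probes were called. Over all probes the count was 837, against 7604 with loess over the whole array, 8793 with median centring, 2 with plain subtraction, 1 with net intensities and 4 with the deposited ratio. At high glucose 1 member passed (459 of all probes), against 28 with loess over the whole array (7648) and 26 with median centring (8111). It was 0 with plain subtraction (38), 0 with net intensities (79), 5 with the second loess (963) and 6 above the empty limit (808). It was 2 without probes under that percentile (493) and 3 with controls at weight 0 (670). The deposited ratio also gave 1 member, with 165 of all probes. The glucose difference gave 0 members under each other setting run on 3 arrays, while the 6 probes called over all became 3 to 167.

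Gem passed under 7 of 12 alternatives (adjusted p 0.00224 to 0.211), Ryr3 D84237 under 7 of 12 (0.0108 to 0.162), Cacna1h NM_021415 under 6 of 12 (0.000267 to 0.179), Atp2b2 under 7 of 13 (0.00277 to 0.18), Trpv2 under 6 of 12 (0.00991 to 0.217) and Cacnb4 AF061330 under 4 of 11 (0.0315 to 0.428), 1 of them with the sign turned. All others kept their sign. With loess over the whole array Cacnb4 turned to -0.046 over 3 arrays, -0.017 at high glucose and -0.088 in the glucose difference, and with median centring to -0.15, -0.13 and -0.072. The glucose difference also turned sign for Cacnb4 with net intensities (-0.0089), for Ryr3 with loess over the whole array (0.040), and with median centring for Atp2b2 (0.055), Trpv2 (0.066) and Cacna1h (-0.051), none of which passed on either side. Without the low glucose array Gem was the member that passed. Without high glucose replicate 1 it was 0 members, and without replicate 2 Ryr3, Trpv2 and Trpc1 (0.23, adjusted p 0.0355) passed. Trpv2 and Cacnb4 were larger with the deposited ratio, at 0.36 and 0.28. Outside the 2 scalings that ignore the print block, members that passed only under an alternative were Cacnb1 (-0.15, adjusted p 0.0445) and Ryr1 X83932 (-0.14, 0.0484) above the empty limit over 3 arrays, and, at high glucose, Cacna1b above the empty limit (-0.18, 0.048), Slc8a1 and Cacnb1. Under the 2 scalings that ignore the print block, more members passed than are named here. The cause of the changes between settings was not tested. The limits are 3 arrays, no dye swap and, for Trpv2, a dim spot. Each ratio already sets NaV1.2CT against EGFP on the same array. The sample labels give no pairs of arrays across the glucose levels, so the glucose difference was not paired.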
